A study of Mus musculus with 2 samples.

Results

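The integrin subunits of keratinocytes were followed here through 10 genes, Itga6, Itgb4, Itgb1, Itga3, Itga2, Itga5, Itga9, Itgav, Itgb5 and Itgb6, of the 34820 gene names measured (14 of the 55676 probes tested) on 2-colour microarrays of SOX11-induced mouse epidermis. The probes were selected on their gene name alone, while the genes themselves were chosen by measured values of these same arrays, among them the difference between the Itga6 probes. The ratios of these 14 probes are therefore given as a description, with no test. Each array set epidermis of 1 FVB/N pup with the transgenes K14-rtTA and TRE-Sox11-FLAG against epidermis of 1 FVB/N littermate that had only K14-rtTA, all at postnatal day 4.5 and all given doxycycline (Dox) for 12 h. K14-rtTA makes a Dox-dependent activator in keratin 14 positive cells, which in the skin are the basal keratinocytes and the outer root sheath of the hair follicle, and TRE-Sox11-FLAG is switched on by that activator. Both the Dox treatment and the activator were thus shared by the groups. There were 2 littermate pairs, 1 per array, with the control always in the Cy3 (green) channel and the SOX11-induced pup always in the Cy5 (red) channel, so that dye and genotype cannot be told apart on any single probe.

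Integrins are pairs of an alpha and a beta subunit that span the cell membrane and tie the extracellular matrix to the cytoskeleton. In the epidermis they sit mostly on basal keratinocytes. The pair α6β4 binds laminin in hemidesmosomes, the rivets that hold basal cells to the basement membrane and that connect to keratin filaments inside the cell. The pairs of β1 with α3, α2, α5 and α9 bind laminin, collagen, fibronectin and tenascin, and connect to actin through talin, kindlin and vinculin, while αv pairs with β5 or β6 and binds vitronectin, fibronectin or the latent form of TGF-β.

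The probes of Itga6 and Itgb1 are shown first, with the position given for each of them. All are 60 bases long and are positioned on the mouse build mm9 by the array files. The upstream Itga6 probe lies at chr2:71690633-71690692 on the plus strand, at base 383 of the Ensembl transcript ENSMUST00000139760. The downstream Itga6 probe lies at chr2:71694756-71694815 on the same strand, 4063 bases further, at base 4145 of NM_008397. Whether either lies in an exon, an intron or an untranslated region was not analysed here. The first Itgb1 probe lies at chr8:131246349-131246408, and the second covers a splice junction, since its 60 bases span 5896 bases of the genome from 131250081 to 131255976. Capitals mark, in the upstream Itga6 probe, the bases 36 to 60 that are shared with a probe of another gene, in the 30 bases given of the downstream Itga6 probe a run of 5 copies of a trinucleotide, and in the second Itgb1 probe the codons of 2 NPxY motifs. NPxY (asparagine, proline, any residue, tyrosine) is the motif by which talin and kindlin hold the tail of a beta subunit, and of the 55676 probes this is the only 1 in which any of the forward reading frames holds 2 of them, while 0.217% of probes hold at least 1.
Itga6 upstream: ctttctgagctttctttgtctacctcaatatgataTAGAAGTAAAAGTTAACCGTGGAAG
Itga6 downstream, bases 14 to 43: tgggaggtcTTGTTGTTGTTGTTGttctga
Itgb1 first: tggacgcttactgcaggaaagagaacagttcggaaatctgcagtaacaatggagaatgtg
Itgb1 second: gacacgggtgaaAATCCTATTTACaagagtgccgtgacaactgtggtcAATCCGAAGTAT

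Between 36.3% and 41.5% of all probes were well above background in a channel, a call made by the scanner software and meant wherever a probe is said to be above background or not. Of the integrin probes, 10 were well above background in all 4 channels, and these cover 7 of the 10 genes. The probes of Itga2 and Itga5 and the first probe of Itgb6 were not above background in any channel, and the Itga9 probe was so only in the SOX11 channel of array 2. None of the 14 was saturated (0 probes). Both probes of Sox11, on chromosome 12, were not above background in any channel on either array, and they start at bases 7437 and 7983 of NM_009234. Per the methods, the transgene was built from the open reading frame with a FLAG tag, and the probes lie beyond that frame, so that they hold no check of the induced gene. The 6 keratinocyte markers (Krt5, Krt14, Krt1, Krt10, Trp63 and Lor) were above background in every channel, and none of them (0 of 6) passed an adjusted p of 0.05 in limma.

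The pairs were not alike in their hair follicle keratins. The 10 hair follicle keratins, all above background in every channel, had log2 ratios of SOX11-induced over control between 1.36 and 2.32 on array 1 and between -0.59 and -0.08 on array 2. Their median brightness in the control channel was 12.49 on the log2 scale on array 1 and 15.27 on array 2. Of the dermal fibroblast markers, Lum and Pdgfra were not above background in any channel, and the 6 genes of that list ranged in log2 ratio from -0.97 to 0.51 on array 1 and from -0.62 to 1.14 on array 2, with 1, Dcn (lower), past an adjusted p of 0.05 in limma. The 4 melanocyte genes ranged from 0.29 to 0.97 on array 1 and from -0.30 to 0.31 on array 2. The 6 Langerhans and T cell genes ranged from -0.63 to -0.14 and from -0.58 to 0.08, and the 3 endothelial genes, of which Cdh5 was not above background, from -0.17 to 0.45 and from -0.16 to -0.04. The part of these cell types in the integrin ratios was not tested. In whole epidermis, fewer cells of a type and less RNA per cell cannot be told apart.

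Of the 14 integrin probes, 1 was called, at a threshold of an adjusted p of 0.05 and a mean log2 ratio past 1.5. Over all probes 0.453% were called, and since the rule that chose the genes used the same contrast, nothing is read from the count. Among the 10 probes above background throughout, 4 were higher in SOX11-induced epidermis on both arrays, 4 were lower on both and 2 had opposite signs. Apart from the called probe, the mean log2 ratios of the other 9 lay between -0.67 and 0.90. With the brightest probe taken for each gene, the median log2 ratio over the 10 integrin genes was -0.03, or -0.05 over the 7 genes above background, beside a median of 0.01 over the 14612 gene names above background in every channel.

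**Figure D1:**
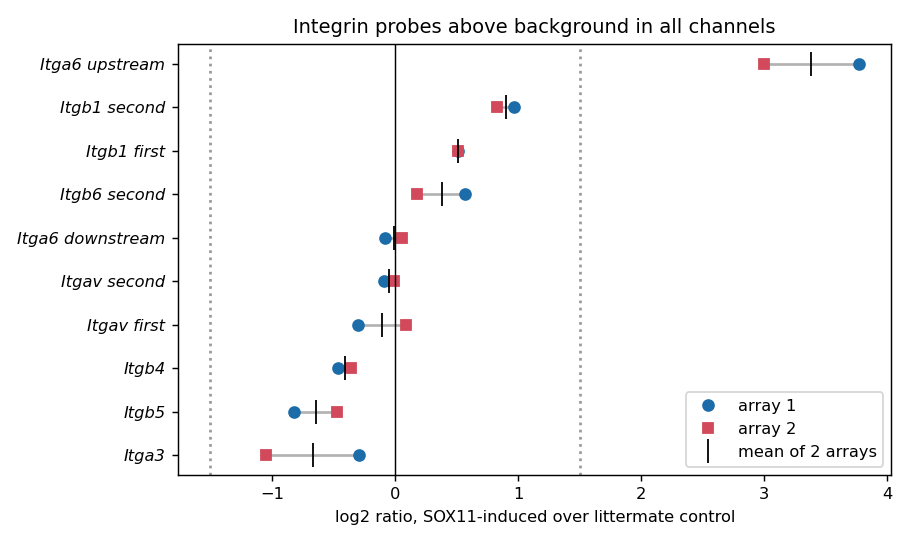
Log2 ratio of SOX11-induced over littermate control epidermis (horizontal axis) for the 10 integrin probes above background in every channel, 1 per line, with a circle for array 1, a square for array 2 and a black tick for their mean; dotted lines mark a log2 ratio of 1.5 in either direction. The upstream Itga6 probe stands at 3.77 and 3.0 while the other 9 probes have means between -0.67 and 0.90.

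The probes of Itga6, whose product is part of the hemidesmosome laminin receptor α6β4, gave divided log2 ratios. Itga6 encodes α6, which pairs with β4 or β1. On the upstream Itga6 probe, the log2 brightness after normalization was 6.36 in the control and 10.12 in the SOX11-induced pup of array 1. On array 2 it was 6.60 in the control and 9.60 in the SOX11-induced pup. Both SOX11-induced channels were above both control channels, with log2 ratios of 3.77 and 3.0 and a mean of 3.38 ± 0.545 (SD, n = 2 arrays), or 10.4-fold. Before any correction the spots read 64.0 and 86.5 scanner units in the control channels, over local backgrounds of 22 and 28, and 1454 and 1251 in the SOX11 channels, over local backgrounds of 63.0 and 62.5. Thus the control spots lay near the lower end of what the arrays could measure, while the SOX11 spots did not.

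The downstream Itga6 probe did not share this difference. Its log2 brightness was 13.47 in the control and 13.39 in the SOX11-induced pup on array 1, and 13.01 and 13.07 on array 2. The channels overlapped, and the log2 ratios were -0.08 and 0.06 with a mean of -0.01 ± 0.102. The difference between the Itga6 probes in log2 ratio was 3.85 on array 1 and 2.93 on array 2, with a mean of 3.39 ± 0.647 (SD, n = 2 arrays).

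So wide a split between the probes of a gene was rare on these arrays. Among the 3371 genes with at least 2 probes above background in every channel, the range of the mean log2 ratios between a gene's probes had a median of 0.19 and a 95th percentile of 0.60, and it was 2 or more in 4 genes. Itga6 ranked number 2. Sox4, the SOXC relative of the induced gene, ranked number 1 with a range of 5.01. Its probe at chr13:29044482-29044541, at base 1010 of the RefSeq transcript, was higher in SOX11-induced epidermis (mean log2 ratio 3.58, limma adjusted p = 1.69e-05). Its probes at chr13:29040826-29040885 and chr13:29042856-29042915 were lower (-1.42 and -1.39, limma adjusted p = 0.000986 and 0.00195). These start at base 4697 of an Ensembl transcript and base 2636 of the RefSeq transcript. Which transcript bound the higher Sox4 probe was not tested. Of the other integrin genes, Itgb1 had a range of 0.39 and Itgav one of 0.06. The split of Itga6 was part of what chose these genes, so its rank is a description.

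**Figure D2:**
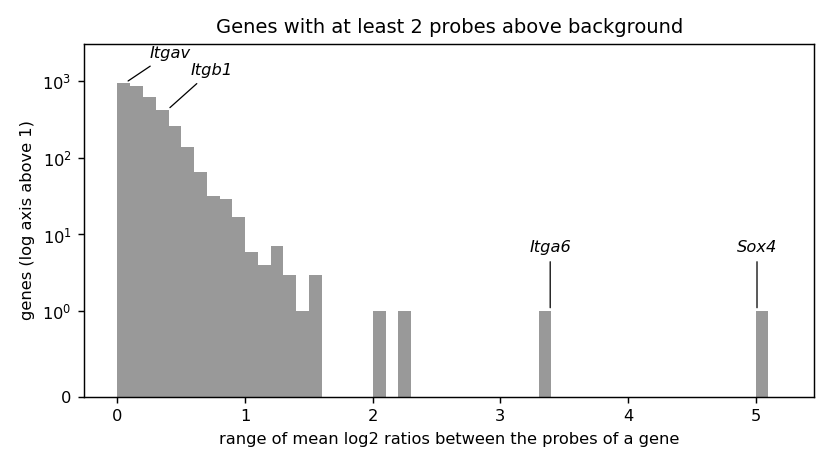
Number of genes (vertical axis, logarithmic above 1) by the range of mean log2 ratios between the probes of a gene (horizontal axis), over 3371 genes with at least 2 probes above background in every channel. Itga6 (3.39) and Sox4 (5.01) stand to the right of the remaining genes, while Itgb1 (0.39) and Itgav (0.06) lie in the bulk.

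The upstream Itga6 sequence was also the only 1 of the 14 integrin probes with close relatives among the other probes of the array, in a search made after its values had been seen. Aligned without gaps to every probe of another name on either strand, the other 13 integrin probes matched at most 31 to 35 bases on the same strand, and 0 of them reached 40 on either strand. The upstream Itga6 probe matched 3 probes at 40 bases or more. A further relative, named 6720475J19Rik, shared the 25 bases printed above in capitals without a mismatch. These relatives are printed to show how much sequence the probes have in common, and whether they bound the same labelled RNA was not tested. Capitals mark the bases that match the upstream Itga6 probe in the best alignment without gaps. Beyond an inserted or missing base such an alignment is out of step, so like bases can stand in lower case and counts be low.
Unnamed probe at chr1:119909268-119909327: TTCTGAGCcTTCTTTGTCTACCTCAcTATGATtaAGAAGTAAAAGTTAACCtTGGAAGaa
Unnamed probe at chr12:22311308-22311367: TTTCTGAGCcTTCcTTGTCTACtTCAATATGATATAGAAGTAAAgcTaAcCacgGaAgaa
Gm5595 at chr7:49915479-49915538: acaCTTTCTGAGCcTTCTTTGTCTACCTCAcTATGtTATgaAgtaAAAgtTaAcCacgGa
6720475J19Rik at chr13_random:160874-160933: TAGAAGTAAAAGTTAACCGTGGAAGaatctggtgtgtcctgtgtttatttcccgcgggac

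The relatives did not all behave as the upstream Itga6 probe. The closest by the ungapped count, on chromosome 1, matched 53 of the 58 bases compared. It had log2 ratios of -0.22 and 0.22 (limma adjusted p = 0.997), above background in every channel. The probe on chromosome 12 matched 46 of 59 bases and was not above background in any channel. The Gm5595 probe matched 41 of 57 bases and had log2 ratios of 0.14 and 0.40 (limma adjusted p = 0.357). Gm5595 has 4 other probes, of which 3 that overlap each other rose by means of 1.42, 2.55 and 2.54 (limma adjusted p = 0.00159, 0.000135 and 7.44e-05), while the remaining 1, at -0.19, was not above background in any channel. None of these 4 matched the upstream Itga6 probe at 40 bases or shared a same-strand stretch of 20 bases with it. The 6720475J19Rik probe was higher in SOX11-induced epidermis, with log2 ratios of 1.55 and 1.43 and a mean of 1.49 ± 0.0846 (SD, n = 2 arrays, limma adjusted p = 0.00082), and its control was above background on array 2 only, with spots of 56.4 and 59.5 scanner units. Another probe of 6720475J19Rik, with a mean of 0.60, was not above background in any channel and did not pass (limma adjusted p = 0.0563). Among 32851 RefSeq promoter windows (GRCm38.p6, 300 bases around each gene's start), 2 (0.00609%), those of Gm52042 and Gm52720, held a stretch of 20 bases of the upstream Itga6 probe on either strand, and 0 held one of the downstream probe. Which transcript bound the upstream Itga6 probe was not tested, and its ratio is uncertain as a measure of Itga6.

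Around the gene, few other probes were bright enough to be set beside the upstream one. In a window of 125 kb to each side of the Itga6 probes, set after the values had been seen, there were 19 other probes, of which 16 were not above background in any channel. These were probes of Gm1631, of intergenic RNAs on both strands upstream, and of Pdk1 downstream. Their mean log2 ratios ran from -0.40 to 0.46, and none (0 of 19) passed an adjusted p of 0.05 in limma (lowest adjusted p = 0.129, 3 at an unadjusted p under 0.05). Pdk1, a kinase that holds back pyruvate dehydrogenase, was the only neighbour above background in every channel, with log2 ratios of -0.50 and -0.31.

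Itgb4 encodes β4, the partner of α6 in hemidesmosomes. Its probe at chr11:115869666-115869725 had a log2 brightness of 11.53 in the control and 11.07 in the SOX11-induced pup of array 1, and of 11.23 and 10.87 on array 2. It was lower in the SOX11-induced pup within each pair, with log2 ratios of -0.46 and -0.36 and a mean of -0.41 ± 0.0693, or 0.754 of the control, while median centring in place of loess turned the mean to 0.24. Under that setting the probes above background had medians of 0.49 and 0.57 on the arrays, against 0.02 and 0.01 under loess, so that Itgb4 lay below the middle of the expressed probes either way.

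Itgb1 encodes β1, the beta subunit with the most alpha partners in the epidermis. The first Itgb1 probe had a log2 brightness of 6.95 in the control and 7.46 in the SOX11-induced pup of array 1, and of 6.76 and 7.27 on array 2. The second Itgb1 probe, over the codons of the NPxY motifs, went from 8.39 to 9.36 on array 1 and from 8.28 to 9.11 on array 2. On both probes each SOX11-induced channel was brighter than both control channels. The mean log2 ratio was 0.51 ± 0.00223 on the first probe and 0.90 ± 0.103 on the second, or 1.43-fold and 1.86-fold, and both stayed positive under all of the other settings tried.

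Itga3 encodes α3, which with β1 forms a laminin receptor. Its probe at chr11:94906334-94906393 (minus strand) had log2 ratios of -0.29 and -1.05 and a mean of -0.67 ± 0.534. The level in the SOX11-induced pup was 7.40 on array 1 and 6.76 on array 2, below the control levels of 7.69 and 7.80, so that the groups did not overlap, yet the size of the difference rested mostly on array 2. The spread between the arrays was near that of the upstream Itga6 probe (SD 0.545) and above the median SD of 0.126 over all probes above background.

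For the other β1 partners the spots were too dim for a ratio to be given. Itga2, the collagen-binding α2, has its probe at chr13:115626714-115626773 (minus strand), where the spots read 46.4 and 43.0 scanner units in the control and 57.6 and 71.8 in the SOX11-induced pups. Itga5, the fibronectin-binding α5, has its probe at chr15:103175022-103175081 (minus strand), with 36 and 49.7 in the control and 79.1 and 79.5 in the SOX11-induced pups. The local background was 21 to 28 units in the green channel and 59 to 61 in the red one at these spots, and neither gene was well above it. Itga9, the tenascin-binding α9, was above background at chr9:118807900-118807959 in 1 of 4 channels only, with log2 brightness between 5.50 and 5.79.

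Itgav, which encodes αv, showed small values. It has probes at chr2:83643905-83643964 and chr2:83646133-83646192, whose starts are 2228 bases apart in the transcript. Their log2 ratios were -0.30 and 0.09 on the first probe, and -0.09 and -0.01 on the second, with means of -0.11 ± 0.275 and -0.05 ± 0.061. The Itgav groups overlapped on the first probe and differed on the second by less than the 2 controls did.

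Itgb5, whose product with αv binds vitronectin, was lower in the SOX11-induced pup of each pair. At chr16:33949123-33949182 the log2 brightness was 11.90 in the control and 11.08 in the SOX11-induced pup on array 1, and 11.79 and 11.32 on array 2, with a mean log2 ratio of -0.64 ± 0.248, or 0.640 of the control, which median centring moved to 0.01. Itgb6, whose product with αv releases TGF-β from its latent form, had 1 of its 2 probes above background. This second probe (minus strand) spans 4616 bases of the genome, from 60438632 to 60443247 on chromosome 2, and had log2 ratios of 0.57 and 0.18 and a mean of 0.38 ± 0.276. Its control levels were 6.66 and 7.23 and its SOX11-induced levels 7.24 and 7.41, so that the groups did not overlap but lay next to each other. The first Itgb6 probe, at chr2:60492788-60492847, was not well above background in any channel.

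**Figure D3:**
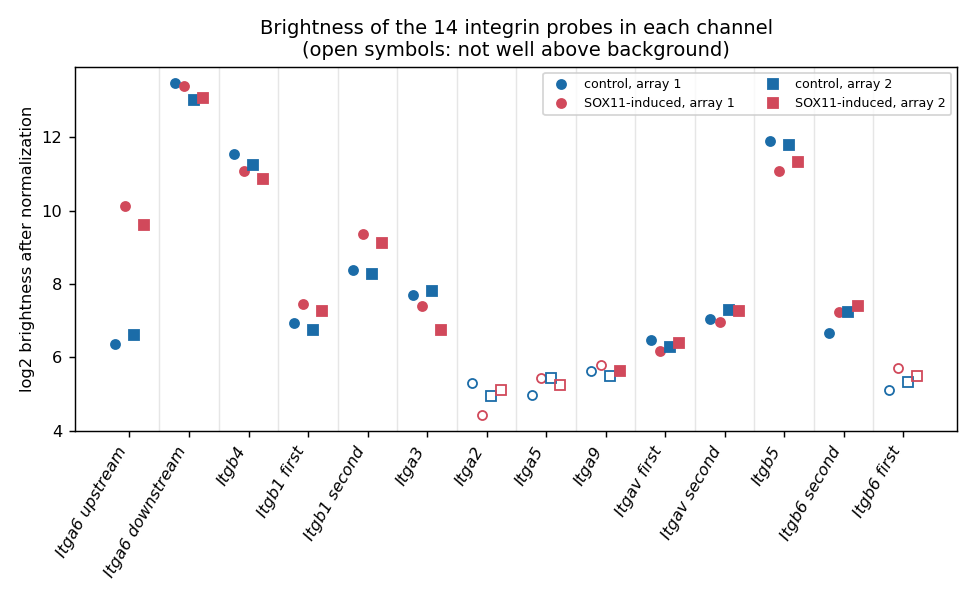
Log2 brightness after normalization (vertical axis) of the 14 integrin probes in each channel, with blue for littermate controls, red for SOX11-induced pups, circles for array 1, squares for array 2 and open symbols where the channel was not well above background. Red stands far above blue on the upstream Itga6 probe alone (6.36 and 6.60 against 10.12 and 9.60), and heights are comparable only within a probe.

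The remaining 16 integrin subunits known in the mouse, most of them of leukocytes, platelets or mesenchymal cells, served as a contrast within the family. They were represented by 24 probes, and the brightest was taken for each gene, of which 8 were above background in every channel and 5 in none. None (0 of 16) passed an adjusted p of 0.05 in limma, with 6 at an unadjusted p under 0.05, and none did by any of their other probes. Under median centring 5 were higher and 1 was lower at that threshold, and with a normexp offset of 50, 1 was lower. Their mean log2 ratios lay between -0.55 (Itga1) and 0.53 (Itgb8), with a median of 0.06.

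Genes of the matrix that integrins bind, and of the complexes inside the cell that they connect to, were then taken by list, again with the brightest probe per gene. In the background, 3.52% of 34820 names were higher and 1.78% lower at an adjusted p under 0.05, or 6.21% and 3.56% of the names above background in every channel. Of the 62 genes in the 4 lists, other integrin subunits included, 8 were higher and 4 lower, and under median centring 31 were higher and 4 lower. The background shares are those after loess and cannot be set beside the counts under median centring. There the probes above background had medians of 0.49 and 0.57 on the arrays.

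Among 21 integrin ligands, 2 rose, 2 fell and 17 did not pass, with a median log2 ratio of 0.25 beside the 0.01 over all names above background. Thbs1, the matrix protein thrombospondin 1, rose by 1.97 and 2.13 on the log2 scale (mean 2.05 ± 0.111, limma adjusted p = 0.000146) and was the only ligand called. Fn1, fibronectin, rose by 2.10 and 0.77 (mean 1.43 ± 0.943, limma adjusted p = 0.018). The Fn1 ratios differed between the arrays in the same sense as the hair follicle keratins, whose medians were 1.87 and -0.40, and their part in it was not tested. When only probes above background were fitted, Fn1 did not pass (limma adjusted p = 0.0558). Ltbp1, which holds latent TGF-β in the matrix, fell by 1.56 and 0.98 (mean -1.27 ± 0.416, limma adjusted p = 0.00464). Npnt, nephronectin, a basement membrane protein, was above background in the control alone and at least 1.42-fold lower in SOX11-induced epidermis (limma adjusted p = 0.0135), a bound in which the dim side is held at the lowest signal counted as well above background and which is open to dye bias. The other probes of Ltbp1 and Npnt were not above background in any channel and did not pass (limma adjusted p = 0.264 and 0.258). The laminin subunits Lama3 and Lamb3 did not pass, with mean log2 ratios of 0.32 and -0.05. Nor did Lama5, Lamc1 and Lamb1, with means of -0.37, 0.01 and 1.28. The Lamb1 ratios were 2.15 on array 1 and 0.41 on array 2 (limma adjusted p = 0.0587). Under median centring Lamb1 passed, with a mean of 1.86 (limma adjusted p = 0.00115).

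Among 21 adaptors and signalling partners, 5 rose, 1 fell and 15 did not pass, with a median log2 ratio of 0.03. Fblim1, which encodes migfilin, a link between kindlin and filamin at focal adhesions, rose by 3.52 and 2.60 (mean 3.06 ± 0.651, limma adjusted p = 0.00013). Tns1, a tensin that binds beta tails and actin, fell on all 3 of its probes, with means of -1.83, -1.39 and -2.28 (limma adjusted p = 0.000391, 0.00113 and 0.000134). Ptk2, the focal adhesion kinase, rose by 1.04 and 0.82 (mean 0.93 ± 0.153, limma adjusted p = 0.0108), though its other probes, both at 0.54, did not pass. Vcl, vinculin, rose by 1.07 and 0.75 (mean 0.91 ± 0.227, limma adjusted p = 0.0139), with its other probe at 0.40 and not past the threshold. Lims1, or PINCH, and Bcar1, the scaffold p130Cas, were named after their values were seen, to complete the 5, and rose by means of 0.76 and 0.64 (limma adjusted p = 0.0301 and 0.0444), with the other Lims1 probe at 0.62 and not past the threshold (limma adjusted p = 0.0526). The talins, which bind the beta tail, did not pass, with mean log2 ratios of -0.13 for Tln1 and -0.16 for Tln2. Nor did the kindlins, at -0.24 for Fermt1 and 0.08 for Fermt2, or Ilk, at -0.26, the lowest mean of the 15. The highest of the 15 were Zyx, at 0.86 (1.44 and 0.28, limma adjusted p = 0.0824), and Tns3, at 0.70 (1.24 and 0.17, limma adjusted p = 0.122).

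Of the 4 hemidesmosome partners, 1 rose and 1 fell. Col17a1, the transmembrane collagen XVII that joins α6β4 in hemidesmosomes, fell by 1.32 and 0.88 (mean -1.10 ± 0.311, limma adjusted p = 0.00669), and under median centring its mean was -0.47 and did not pass (limma adjusted p = 0.0615). Cd151, a tetraspanin bound to α3 and α6 integrins, rose on both of its probes, with means of 0.73 and 1.00 (limma adjusted p = 0.0316 and 0.0096). The plakins that tie the complex to keratin did not pass, with means of -0.38 for Plec and 0.37 for Dst.

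**Figure D4:**
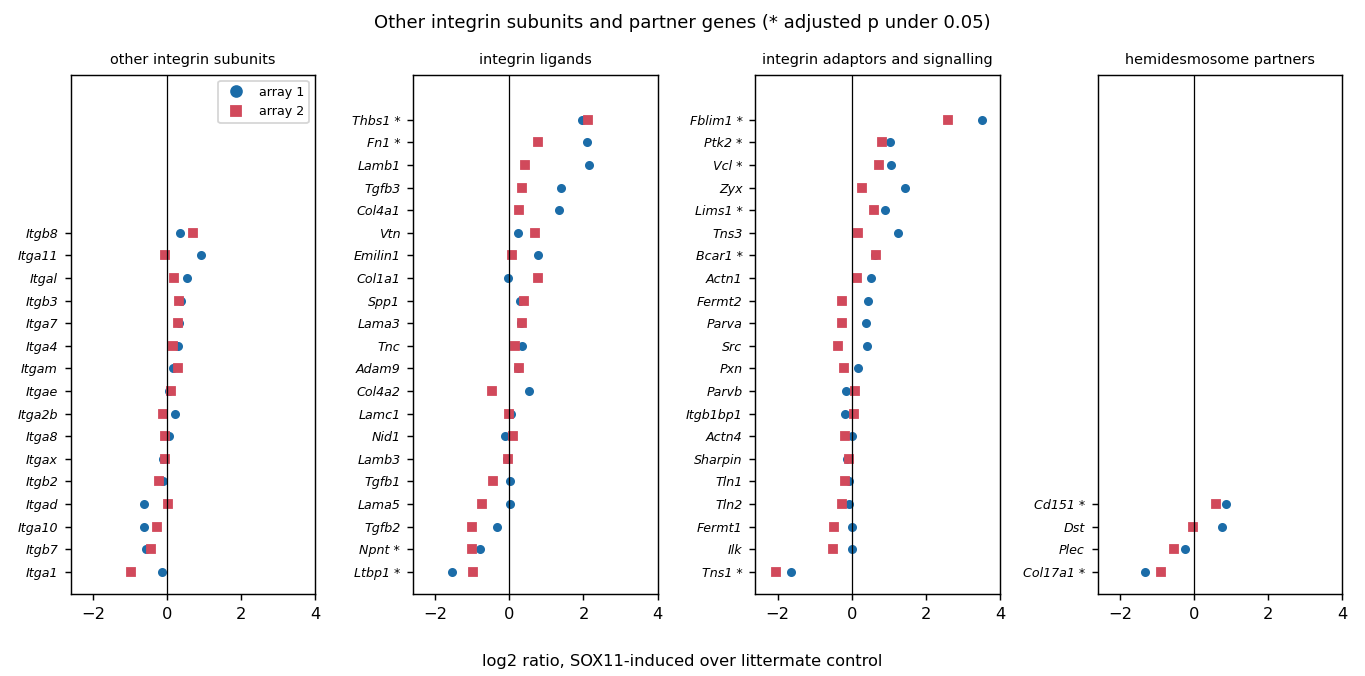
Log2 ratio of SOX11-induced over littermate control epidermis (horizontal axis) for the brightest probe of each gene in 4 lists, with circles for array 1, squares for array 2 and a star after genes with an adjusted p under 0.05 in limma. No star falls in the other integrin subunits, while the ligands have 4, the adaptors 6 and the hemidesmosome partners 2.

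**Figure D5:**
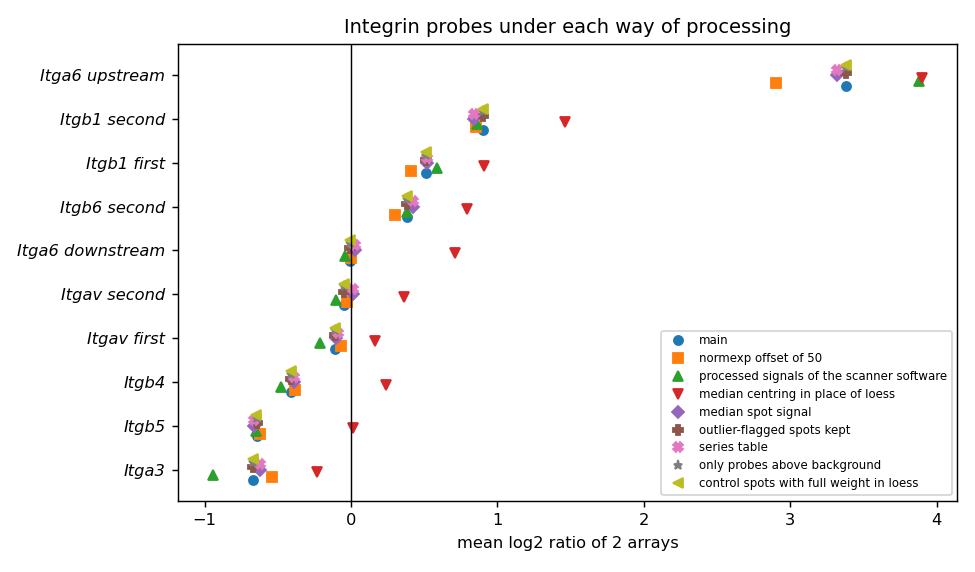
Mean log2 ratio of the 2 arrays (horizontal axis) for the 10 integrin probes above background in every channel, with 1 symbol for each way of processing. The upstream Itga6 probe lies between 2.90 and 3.90 throughout, and median centring places every probe further to the right than loess does, so that Itgb4 reaches 0.24 and Itgb5 0.01.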

How the data were processed

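Both arrays were scanned and read, per the file headers, with Agilent Feature Extraction 10.7.3.1, and probes were placed on mm9. The deposited intensity values are spot and local background brightness of each channel, without normalization. The deposited processed signals are intensity values that the software had already corrected for background and dye. The deposited series table gives a log2 ratio per probe and array. The methods mention a colour swap and a ComBat step, while the labels give the same dyes on both arrays.

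The mean brightness of each spot was corrected in limma 3.58.1 (R 4.3.3) by normexp (offset 16) and the ratios centred by loess with control spots at weight 0. Spots with an outlier flag (194 and 186) were dropped and spots of a probe averaged. The 55676 probes were fitted with an intercept, eBayes and Benjamini-Hochberg adjustment over all of them, and the calls lean on the prior of the fit (SD 0.223, 8.34 degrees of freedom). Channel brightness is the loess value after Aquantile scaling. Each ± is the SD of 2 littermate pairs, and the number of arrays limits the precision. Only the fit and the calls were tested on simulated data, with noise drawn from that same prior. Such data cannot test the steps before the fit. Of the 14 integrin probes, 13 carried a RefSeq accession with the same symbol in a table of GRCm38.p6. The remaining 1 was the upstream Itga6 probe, whose target is an Ensembl transcript. All integrin probes were to be named, as were called genes and up to 4 genes per list with the largest mean log2 ratio in either direction past the adjusted p, and genes whose probes were split as widely as those of Itga6. A listed ligand is not reported here and was left out of the list counts. List genes named that did not pass were picked for their role or for the size of their ratio after their values were seen. The members, lists and tests were chosen with earlier results of these data known. Figures were drawn with Python 3.11.15 and matplotlib 3.10.9.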

Additional observations from a re-analysis of the deposited data

How the results depend on the processing

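Of the 8 alternatives, the weighting of control spots in loess was added after seeing the data. The number of integrin probes called, a description of genes chosen on the same contrast, was 1 in 7 of them. On the processed signals of the scanner software the number of integrin probes called was 0, as was that of all probes, with 1 integrin probe and 936 probes in all past a log2 ratio of 1.5 at an unadjusted p under 0.05 in limma, and in the lists 0 genes were higher and 0 lower (20 of 62 at an unadjusted p under 0.05). Median centring in place of loess moved the median over the integrin genes to 0.22 and the list genes higher to 31, and gave 746 calls higher and 10 lower over all probes, against 204 and 48. Under it 5 of the 10 integrin probes above background changed sign, and 2 did so with median spot signal and in the series table (the downstream Itga6 and the second Itgav probe). The difference between the Itga6 probes lay between 2.90 and 3.93. With either pair left out, which allows no test, 1 integrin probe was past a log2 ratio of 1.5, the difference between the Itga6 probes was 2.93 or 3.85, and the median over the integrin genes was 0.03 or -0.09. The fit is itself on the differences within littermate pairs, so that no further block applied. Signals not well above background limit what Itga2, Itga5, Itga9 and the first Itgb6 probe can show.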
